A study of Mus musculus with 49 samples.

Results

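The members described here are the genes for heterotrimeric G protein subunits and for regulators of G protein signalling (RGS proteins). They were taken by symbol from the protein-coding genes of the count table, as every numbered RGS gene, the named Gα genes, Gnb1 to Gnb5 and every numbered Gng gene. The rule gave 54 members, 31 G protein subunits and 23 RGS genes, of 52636 genes in the table and 21896 protein-coding genes. The rule reads symbols only, and all were described by level in each method and cell type.

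RNA was measured in D1-MSNs and D2-MSNs, the medium spiny neurons that express the Drd1 or the Drd2 dopamine receptor, from the nucleus accumbens (NAc) of C57BL/6J mice. No treatment is named in the labels. In whole cell-FACS, fresh tissue was digested with papain, and cells with a fluorophore in the cytoplasm under the Drd1 or Drd2 promoter were sorted (8 D1 and 6 D2 libraries). In nuclear-FACS, nuclei were freed from frozen tissue by douncing and sorted for an EGFP-F transgene (Thy1-loxPSTOPloxP-EGFP-F) switched on by Drd1-cre or Drd2-cre (6 D1 and 5 D2 libraries). In RiboTag, the same Cre drivers switched on an HA-tagged ribosomal protein, Rpl22, and RNA was pulled down with ribosomes from fresh tissue. There were 6 D1 and 6 D2 RiboTag libraries labelled male, and 5 D1 and 5 D2 labelled female. Whole cell and nuclear libraries were all labelled male, ages are not given in the sources used here, and per the study each sample was from a different mouse. A repeat run of whole cell D1 number 1 and a further lane of D2 number 3 were summed with their libraries, and counted apart they would make 9 D1 and 7 D2. Method and mouse line change together in every comparison between methods, and frozen against fresh tissue changes with them in those with nuclei, so their parts in such a difference cannot be told apart.

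A G protein is a switch made of an α subunit that binds GTP or GDP and a pair of β and γ subunits. A receptor makes the α subunit take up GTP, α and βγ then act on enzymes and channels, and hydrolysis of GTP by α ends the signal. RGS proteins speed up that hydrolysis. In the striatum, Golf (the α subunit encoded by Gnal, with Gβ and the γ subunit encoded by Gng7) couples the D1 receptor in D1-MSNs and the adenosine receptor encoded by Adora2a in D2-MSNs to adenylyl cyclase. The D2 receptor acts through Gi and Go. Rgs9 encodes a striatum-enriched RGS protein that works bound to the atypical β subunit encoded by Gnb5 and to a membrane anchor, R7BP, encoded by Rgs7bp.

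By role, 2 members encode stimulatory α subunits (Gs class), 8 Gi, Go, Gz or transducin α subunits, 4 Gq class α subunits and 2 G12/13 α subunits. A further 5 encode β and 10 encode γ subunits. Of the RGS genes, 10 belong to the R4 group, 4 to R7, 2 to the R7 anchors, 3 to RZ, 3 to R12, and 1 (Rgs22) to none of these. On GRCm38, the members the results turn on most are Gnb4 (chr3:32580332-32616585, minus strand), Gnai1 (chr5:18265135-18360355, minus), Gng7 (chr10:80948624-81014945, minus), Gnb5 (chr9:75306288-75345876, plus), Rgs9 (chr11:109225355-109298129, minus) and Rgs4 (chr1:169741477-169747642, minus). Of the 54 members, 38 had a count in every one of the 47 libraries. Reads anywhere in a gene body were counted on either strand, and 31 members overlap another gene. Gnb2 (Epo), Gnaz (Rsph14), Gng10 (Gm20503), Gng3 (Bscl2), Rgs11 (Arhgdig) and Gnb5 (antisense Gm48677 and Gm19531) are overlapped over 57.8 to 100% of their span, and for these genes reads of the partner cannot be told apart from their own. The same holds for the overlapped 44.1% of Gnas (mainly Gm20721), where overlapping genes had 79.2% of the counts of Gnas itself. For Gna12 (Amz1) and Rgs20 (Atp6v1h), overlapped over 4.21 and 6.36% of their span, that share was 79.6 and 66.3%.

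The promoters of 3 members that differed between D1- and D2-MSNs in more than 1 comparison are shown for context. They are the 250 bases before the RefSeq start on the gene's strand (GRCm38.p6), with GC boxes (GGGCGG on either strand) and CCAAT boxes (CCAAT on either strand) in capitals. Gnai1 lies at chr5:18360414-18360663 on the minus strand, Gng7 (the outermost of 2 starts) at chr10:81014926-81015175 on the minus strand, and Gnb5 at chr9:75306038-75306287 on the plus strand.
Gnai1: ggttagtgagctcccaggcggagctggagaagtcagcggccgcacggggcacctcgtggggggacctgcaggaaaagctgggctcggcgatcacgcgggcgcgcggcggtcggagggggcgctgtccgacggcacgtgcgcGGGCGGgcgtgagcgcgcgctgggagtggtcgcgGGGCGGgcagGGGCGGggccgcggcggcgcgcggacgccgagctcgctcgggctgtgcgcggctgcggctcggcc
Gng7: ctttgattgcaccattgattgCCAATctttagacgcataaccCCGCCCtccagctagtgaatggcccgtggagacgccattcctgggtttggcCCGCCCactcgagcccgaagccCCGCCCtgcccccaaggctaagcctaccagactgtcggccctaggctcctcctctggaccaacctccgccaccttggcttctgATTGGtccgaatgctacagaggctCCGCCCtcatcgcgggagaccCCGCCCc
Gnb5: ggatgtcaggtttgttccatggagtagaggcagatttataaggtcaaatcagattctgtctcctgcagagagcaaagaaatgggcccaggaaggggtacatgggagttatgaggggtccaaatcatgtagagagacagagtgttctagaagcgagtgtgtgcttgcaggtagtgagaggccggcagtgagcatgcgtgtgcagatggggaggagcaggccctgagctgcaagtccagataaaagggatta

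The windows held 3 GC boxes in Gnai1 and 5 in Gng7, and 2 CCAAT boxes in Gng7. The Gnb5 window held neither and had the letters TATAAA on the opposite strand. Among all 32851 promoters of that table, 32.7% held GGGCGG, 33.8% CCAAT and 12.4% TATAAA, in each case on either strand. Of the 54 members, 40 had a promoter in the table, with 53 starts, and 25 of the 53 (47.2%) held GGGCGG. Of the same 53, 28.3% held CCAAT and 15.1% TATAAA. Their median GC content was 60.4%, against 52.4% over all promoters. A match is a description of the letters and not a site in use. Gnb4, D1-enriched in 3 comparisons below, has no entry there.

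Several libraries stood apart before any member was compared. Total counts ran from 3701255 to 68777008. The 10 highest genes of a library took 84.9 to 88.3% of counts in RiboTag, 20.3 to 66.9% in nuclear D1, 5.23 to 13.9% in nuclear D2, and up to 54.5% in whole cell D2. The density of counts per kb at 1429 olfactory and vomeronasal receptor genes, which belong to sensory tissues, served as a background. Spread over all gene spans it would amount to 8.35 to 52.5% of whole cell counts, 0.578 to 22.2% in nuclear D1, 32.5 to 52.3% in nuclear D2 and at most 0.0629% in RiboTag. Of the 12 RiboTag libraries labelled male, 6 (D1 numbers 1 to 4 and D2 numbers 2 and 6) had a summed level of 4 Y-linked genes between 0.0348 and 1.79 CPM, while the other 6 had 8.54 to 10.7 CPM and the female-labelled libraries at most 0.246 CPM. Xist had 1.74 to 8.25 CPM in the 6 low libraries, 0.0321 to 0.448 CPM in the other 6 and 2.575 to 10.83 CPM in the female-labelled ones. The Xist range of the 6 low libraries thus overlapped that of the female-labelled ones and not that of the other 6.

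Cell type markers followed the labels in whole cell and RiboTag libraries, where all 5 D1 markers were lower and all 5 D2 markers were higher in D2 (edgeR, adjusted p at most 0.05). Of the 4 D1 markers tested in the nuclei, 1 passed, Drd1 with a log2 fold change of -1.75 (adjusted p = 0.00917). Drd2 was higher in nuclear D2 (1.74, adjusted p = 0.0024), but the D2 marker Penk, the enkephalin precursor, was lower there (-2.42, adjusted p = 0.00917). Of the other D2 markers tested there, Adora2a (-0.05, adjusted p = 0.885) and Gpr6 (-1.12, adjusted p = 0.162, both by edgeR) did not pass. The summed level of 5 D2 markers was 7.42 to 53.9 FPKM in nuclear D1 and 1.91 to 7.15 FPKM in nuclear D2. That sum ran against the label, but it is led by its most abundant genes. The 5 D1 markers also summed higher in nuclear D1 (2.56 to 9.76 FPKM) than in nuclear D2 (1.02 to 1.76 FPKM). On the FPKM scale over all 47 libraries, 3 marker lists of other cells were also higher in nuclear D1 without overlap. Oligodendrocyte markers summed to 7.02 to 22.6 FPKM in D1 and 2.32 to 6.68 FPKM in D2 (all 5 above 0 in some library), GABA interneuron markers to 2.6 to 13.6 and 1.14 to 1.88 FPKM (all 4), and astrocyte markers to 1.3 to 2.99 and 0.913 to 1.23 FPKM (all 5). The 5 medium spiny neuron markers were higher in nuclear D1 on that scale too (5.82 to 32 against 1.33 to 4.73 FPKM). The direction of a nuclear difference on it can depend on the scaling, as for Gnb4 below. In RiboTag labelled male, the 3 excitatory neuron markers summed to 4.34 to 10.6 FPKM in D1 and 0.204 to 3.17 FPKM in D2, 4 GABA interneuron markers to 18.3 to 24.7 and 7.08 to 16 FPKM, and 3 cholinergic markers to 0.0947 to 0.352 and 0.708 to 1.48 FPKM. In RiboTag labelled female, excitatory neuron markers summed to 2.96 to 9.09 FPKM in D1 and 0.397 to 1.54 FPKM in D2, cholinergic markers to 0.0394 to 0.312 and 0.511 to 1.41 FPKM, and 4 endothelial markers to 0.154 to 1.59 and 0.0189 to 0.12 FPKM, none overlapping, while GABA interneuron markers overlapped (16.6 to 33.3 and 4.38 to 17.5 FPKM). The 5 medium spiny neuron markers had a lower sum in D1 in both RiboTag sets (94.4 to 106 against 124 to 159 FPKM, and 99.6 to 110 against 142 to 166 FPKM). The part of these differences in the results for members was not tested. In sorted or pulled-down bulk RNA, fewer cells of a type and less RNA per cell cannot be told apart.

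The order of levels was led by Rgs4, an R4 group RGS protein that acts on Gi and Gq. Levels between genes are FPKM over the gene span, on 1 scale over all 47 libraries. Rgs4 was the highest member in every method, with means over D1 and D2 of 5.86 FPKM in whole cell, 2.96 in nuclear, 24.98 in RiboTag labelled male and 25.9 in RiboTag labelled female. In RiboTag labelled male, Gng3, a neuronal γ subunit, was next at 13.9 FPKM, then Gnb2 at 9.51, Rgs2 at 5.81 and Gnal at 3.69. In whole cell, Rgs2 (3.19), Gnb2 (2.78), Rgs9 (1.88), Gng3 (1.57) and Gnal (1.26 FPKM) followed. Neighbours in the whole cell order overlapped widely: Rgs9 had 0.442 to 2.61 FPKM in the D1 libraries, and Gnal 0.369 to 1.86 FPKM. With scaling set within each method, Rgs4 stayed first in each method. Its means were then 18.8 FPKM in whole cell, 7.17 in nuclear, 7.90 in RiboTag labelled male and 7.95 in RiboTag labelled female. Gnal had 4.08 FPKM in whole cell and 1.17 in RiboTag labelled male. Which method had the higher level of a member thus depends on the scaling.

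**Figure D1:**
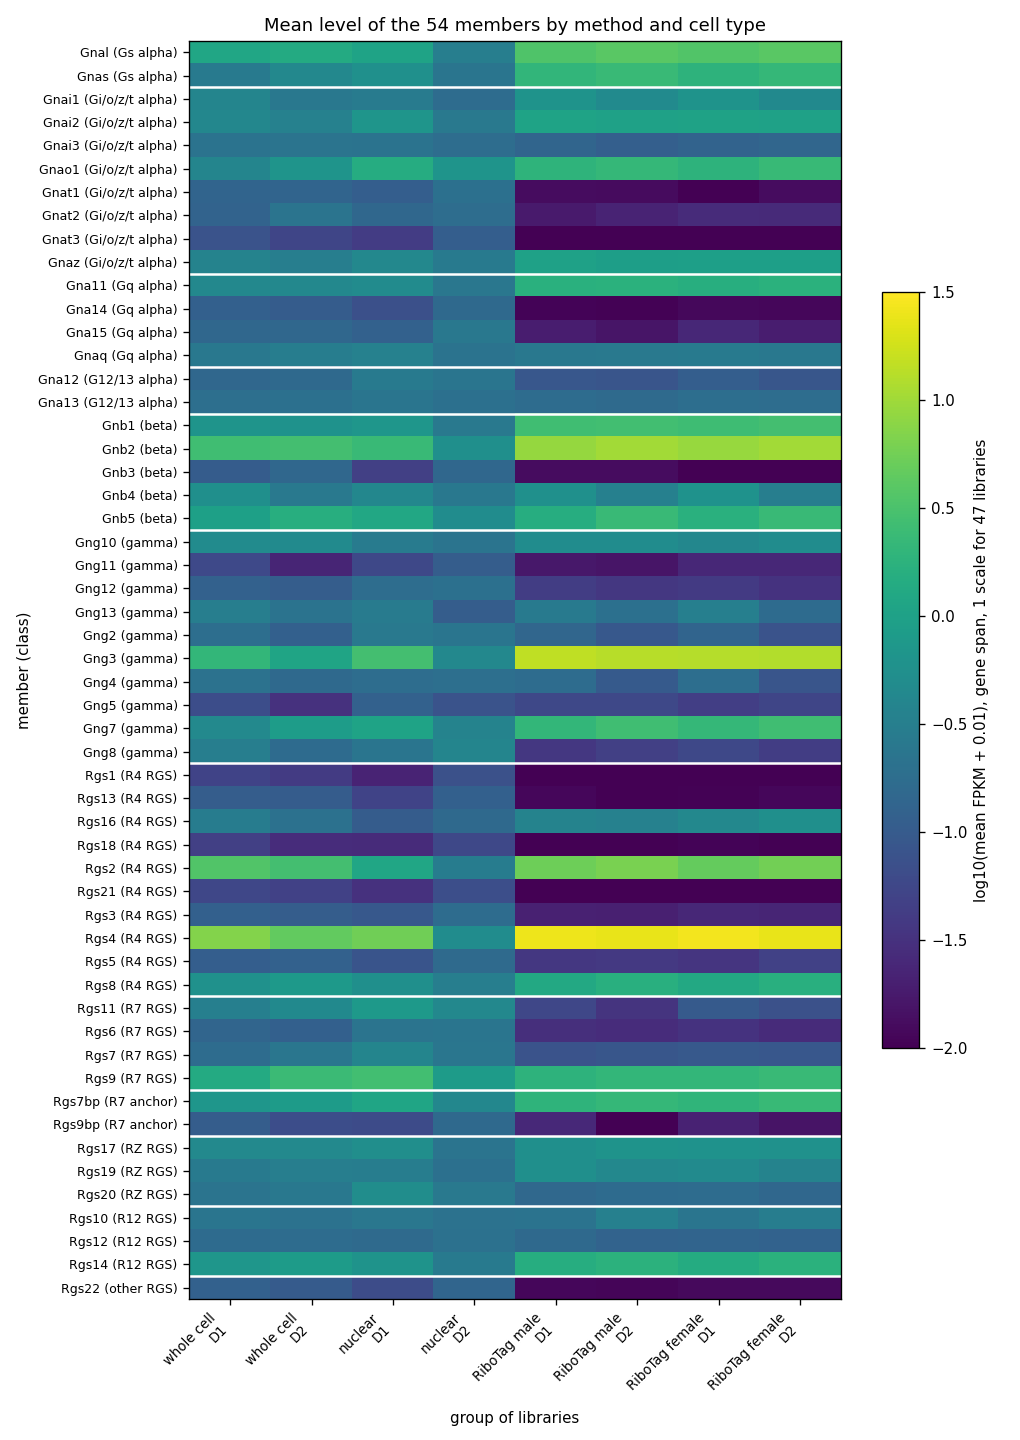
Heatmap of mean FPKM (log scale, over the gene span) for the 54 members (rows, grouped by role) in the 8 groups (columns). Rgs4 is the highest member in all 3 methods, and 17 members are near the background of receptor genes in whole cell and nuclear D2 libraries and below 0.05 FPKM in RiboTag.

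Within the α subunits, Gnal was the higher of the 2 Gs class members in every method. It had 1.16 ± 0.58 FPKM (SD, n = 8) in whole cell D1 and 1.37 ± 0.55 (n = 6) in D2, 1.06 ± 0.38 (n = 6) and 0.302 ± 0.076 (n = 5) in nuclear D1 and D2, and 3.39 ± 0.18 and 3.98 ± 0.15 (n = 6 each) in RiboTag labelled male. Gnas, the ubiquitous Gs subunit, had 0.259 ± 0.036 FPKM in whole cell D1, and 1.98 ± 0.38 FPKM in RiboTag labelled male D1. Among the Gi, Go, Gz and transducin genes, Gnao1 (Go) was highest in each method, and in the Gq class Gna11 was. In the G12/13 class the highest group mean was 0.263 FPKM (Gna12 in nuclear D1).

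Of the β genes, Gnb2 was highest in each method, and of the γ genes Gng3 was, but both are short genes that overlap other genes. Among RGS groups, Rgs9 led R7, Rgs7bp the anchors and Rgs14 the R12 group in every method. Rgs17 led RZ in whole cell and RiboTag, and Rgs20 in the nuclei. This order rests on the gene span. With summed exons as the length, the highest member of a group was the same in 26 of 48 pairs of group and method, and Rgs9 (21.5 FPKM) became the first and Gnb5 (16.1 FPKM) the second member in whole cell, while Rgs7 (21.9 FPKM) was first in the nuclei and Rgs4 stayed first in RiboTag labelled male.

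A member was taken as near background when it met both of these limits. Its median level in whole cell D1, whole cell D2 and nuclear D2 was at most 3 times that of the receptor genes per length. Its median over the RiboTag libraries was below 0.05 FPKM. Both were met by 17 members: Gnat1, Gnat3, Gna14, Gna15, Gnb3, Gng5, Gng11, Gng12, Rgs1, Rgs3, Rgs5, Rgs6, Rgs13, Rgs18, Rgs21, Rgs22 and Rgs9bp. These include the α subunits of rod vision and taste (Gnat1, Gnat3), the pericyte marker Rgs5 and Rgs9bp, the retinal anchor. Their RiboTag levels were low by that choice, with group means of at most 0.0482 FPKM. In nuclear D1, where the background was lower, Rgs6 (10.6 times), Gng12 (9.03), Gng5 (8.33) and Gna15 (5.11) had higher medians, and the other 13 had at most 3. The RiboTag limit is a level and not a multiple of the RiboTag background, which was lower still. Group medians there were 15.85 to 20.69 times background for Rgs6, 17.95 to 38.96 for Gng12 and 19.25 to 56.12 for Gng5. They were 21.3 to 33.92 for Rgs5 and 12.57 to 13.39 for Rgs3. Gnat1, Gnat3, Gnb3, Gng11, Rgs1, Rgs18 and Rgs21 had medians of 0 in each RiboTag group. Gna12, Gna13, Gng2 and Gng4 also met the limit in whole cell and nuclear D2 libraries, but had RiboTag medians above 0.05 FPKM.

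D1- and D2-MSNs were first compared in whole cells, as normalised CPM (the CPM unit, on the scale of that fit). Here and below, a member is called when its adjusted p is at most 0.05, its log2 fold change (D2 over D1) is beyond 0.38 in size, and its mean is above the 25th percentile. Gnb4 and Gnai1 were lower and Gng7 was higher in D2-MSNs. These are 3 of 30 members tested, where 1.05% of all 16385 genes tested were called (0.360% higher and 0.690% lower in D2). The median log2 fold change of the 30 was -0.09, as was that of all genes.

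Gnb4 encodes a β subunit that pairs with γ in ordinary trimers. Its whole cell level was 92.3 at lowest, 117.5 at the median and 137.5 CPM at highest in D1, and 32.8, 55.1 and 63.1 CPM in D2. All 6 D2 libraries were below all 8 D1 libraries. The log2 fold change was -1.17 (SE 0.17, edgeR adjusted p = 0.00105).

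Gnai1 encodes the inhibitory Gαi1. It ran from 163.9 through a median of 210.2 to 261.9 CPM in D1 and from 90.2 through 117.0 to 153.7 CPM in D2, again with no overlap. Its log2 fold change was -0.79 (SE 0.15, edgeR adjusted p = 0.0150). It passed in 8 of 14 fits that each left out 1 library, with an adjusted p of up to 0.102 (edgeR) without D1 number 1, 2, 3 or 4 or D2 number 3 or 4, and had an adjusted p of 0.0694 (edgeR) without the 3 D2 libraries whose 10 highest genes held over 20% of counts.

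Gng7 encodes the γ subunit of Golf. It had 118.9, 167.8 and 213.3 CPM in D1 and 199.8, 315.2 and 417.8 CPM in D2 (lowest, median, highest). One D2 library lay within the D1 range, and 5 of 6 were above it. The log2 fold change was 0.84 (SE 0.17, edgeR adjusted p = 0.0219).

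The other members tested in whole cells did not pass. Gnb5 (0.56, adjusted p = 0.143), Gnao1 (0.56, adjusted p = 0.106), Gnas (0.51, adjusted p = 0.0703) and Rgs9 (0.66, adjusted p = 0.219) had positive edgeR differences. Gnal had 454, 942 and 1299 CPM in D1 and 811, 991 and 1274 CPM in D2, which overlap (0.11, SE 0.22, adjusted p = 0.918). Gng3 had -0.98 (adjusted p = 0.0695) and Rgs4 -0.76 (adjusted p = 0.278).

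The whole cell calls depend on which genes enter the fit. Without the filter on FPKM, no member was called, and 34 genes were called in all, with 1990 at an unadjusted p under 0.05. The log2 fold changes stayed of similar size, at -1.07 for Gnb4 (edgeR adjusted p = 0.0686), -0.61 for Gnai1 (0.641) and 1.03 for Gng7 (0.129). DESeq2 called 9 members, 6 higher and 3 lower in D2, and 700 genes in all, 442 higher and 258 lower. With DESeq2 size factors in edgeR, 6 members were called (4 higher), and the split over all genes went from 59 higher and 113 lower to 145 higher and 52 lower. The background share estimated from receptor genes was 13.5 to 52.5% in whole cell D1 and 8.35 to 36.8% in D2. With that background subtracted, 3 members were called, and Gnb4 (-1.33), Gnai1 (-0.92) and Gng7 (0.97) passed.

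In RiboTag libraries labelled male, Gnb5 and Rgs10 were higher, and Gnb4 and Gnai1 were lower in D2-MSNs. These 4 of 22 members tested were called, against 2.59% of 6800 genes (0.941% higher and 1.65% lower). By adjusted p alone 10 members passed, 8 higher and 2 lower, against 9.32% of all genes (4.09% higher and 5.24% lower). The median log2 fold change of the 22 was 0.18, and that of all genes 0.00.

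Gnb4 had 5.43 CPM at lowest, 6.08 at the median and 8.75 at highest in RiboTag labelled male D1, and 3.15, 3.60 and 3.98 CPM in D2, with no overlap. Its log2 fold change was -0.84 (SE 0.10, edgeR adjusted p = 2.26e-06). Gnai1 had 17.2, 18.0 and 18.6 CPM in D1 and 13.3, 13.5 and 14.0 CPM in D2, also without overlap (-0.40, SE 0.05, edgeR adjusted p = 1.13e-06).

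Gnb5, whose product joins R7 RGS proteins in place of a γ subunit, had 17.3, 18.6 and 20.2 CPM in D1 and 25.1, 28.9 and 29.9 CPM in D2. The groups did not overlap, and the log2 fold change was 0.60 (SE 0.05, edgeR adjusted p = 1.63e-08). Rgs10, a small R12 group RGS protein, had 2.25, 2.69 and 3.59 CPM in D1 and 3.77, 4.57 and 5.58 CPM in D2 without overlap (0.71, SE 0.12, edgeR adjusted p = 0.00013).

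Golf members passed by adjusted p, with smaller differences. Gng7 had 40.6, 42.0 and 44.5 CPM in D1 and 51.3, 53.5 and 56.4 CPM in D2 (0.35, SE 0.04, edgeR adjusted p = 1.77e-06). Gnal had 138.2, 143.9 and 159.1 CPM in D1 and 162.2, 170.0 and 178.1 CPM in D2 (0.23, SE 0.04, edgeR adjusted p = 0.000866). For both genes, every D2 library was above every D1 library. Gnao1 (0.21), Rgs8 (0.32), Gnb2 (0.22) and Rgs17 (0.17) passed too, and Rgs17 still passed in 4 of the 12 fits that left out 1 library.

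Rgs9 did not pass in RiboTag labelled male (35.4, 38.4 and 52.9 CPM in D1 and 39.2, 47.9 and 50.3 CPM in D2), and the groups overlapped (0.18, SE 0.08, edgeR adjusted p = 0.172). Rgs7bp (0.14, adjusted p = 0.233), Gnas (0.26, adjusted p = 0.12) and Rgs4 (-0.13, adjusted p = 0.631) did not pass either. Without the 6 libraries whose Y-linked genes were low, only D1 numbers 5 and 6 and D2 numbers 1, 3, 4 and 5 remained. In that smaller fit 6 members were called, 4 higher and 2 lower, and Gnb4 (-1.02), Gnai1 (-0.39), Gnb5 (0.69) and Rgs10 (0.57) all passed at adjusted p of 0.0332 or less (edgeR).

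RiboTag libraries labelled female gave 3 called members of 22 tested, against 1.89% of 7083 genes (0.720% higher and 1.17% lower). Gnb5 was higher, and Gnb4 and Gnai1 were lower in D2. By adjusted p alone 7 members passed, 5 higher and 2 lower, against 4.52% of all genes (1.96% higher and 2.56% lower).

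Gnb4 had 6.37, 6.80, 7.28, 7.46 and 8.32 CPM in the 5 D1 libraries and 3.06, 3.31, 3.67, 3.73 and 4.35 CPM in the 5 D2 libraries (-1.005, SE 0.10, edgeR adjusted p = 5.39e-07). Gnai1 had 18.2, 19.3, 19.9, 20.2 and 20.4 CPM in D1 and 12.7, 13.3, 13.6, 14.5 and 14.6 CPM in D2 (-0.51, SE 0.06, edgeR adjusted p = 4.09e-06). In both, all D1 libraries were above all D2 libraries.

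Gnb5 had 20.7, 20.99, 22.03, 22.25 and 22.9 CPM in D1 and 28.2, 29.1, 29.7, 30.4 and 31.6 CPM in D2 (0.45, SE 0.05, edgeR adjusted p = 5.28e-06). Gng7 had 44.1, 46.4, 46.5, 46.8 and 49.0 CPM in D1 and 51.0, 53.0, 56.5, 60.2 and 63.3 CPM in D2, and passed by adjusted p alone (0.29, SE 0.06, edgeR adjusted p = 0.00437). Neither gene overlapped between the groups.

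Gnao1 (0.27), Rgs8 (0.28) and Rgs7bp (0.20) passed as well, Rgs7bp in 3 of the 10 fits that left out 1 library. Gnal had 150.7, 156.7, 161.6, 172.4 and 176.3 CPM in D1 and 175.8, 177.7, 182.5, 182.5 and 188 CPM in D2, which touch at 1 library, and it did not pass (0.15, SE 0.05, edgeR adjusted p = 0.115). Rgs10 had 0.35 (adjusted p = 0.138) and Rgs9 0.12 (adjusted p = 0.4).

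**Figure D2:**
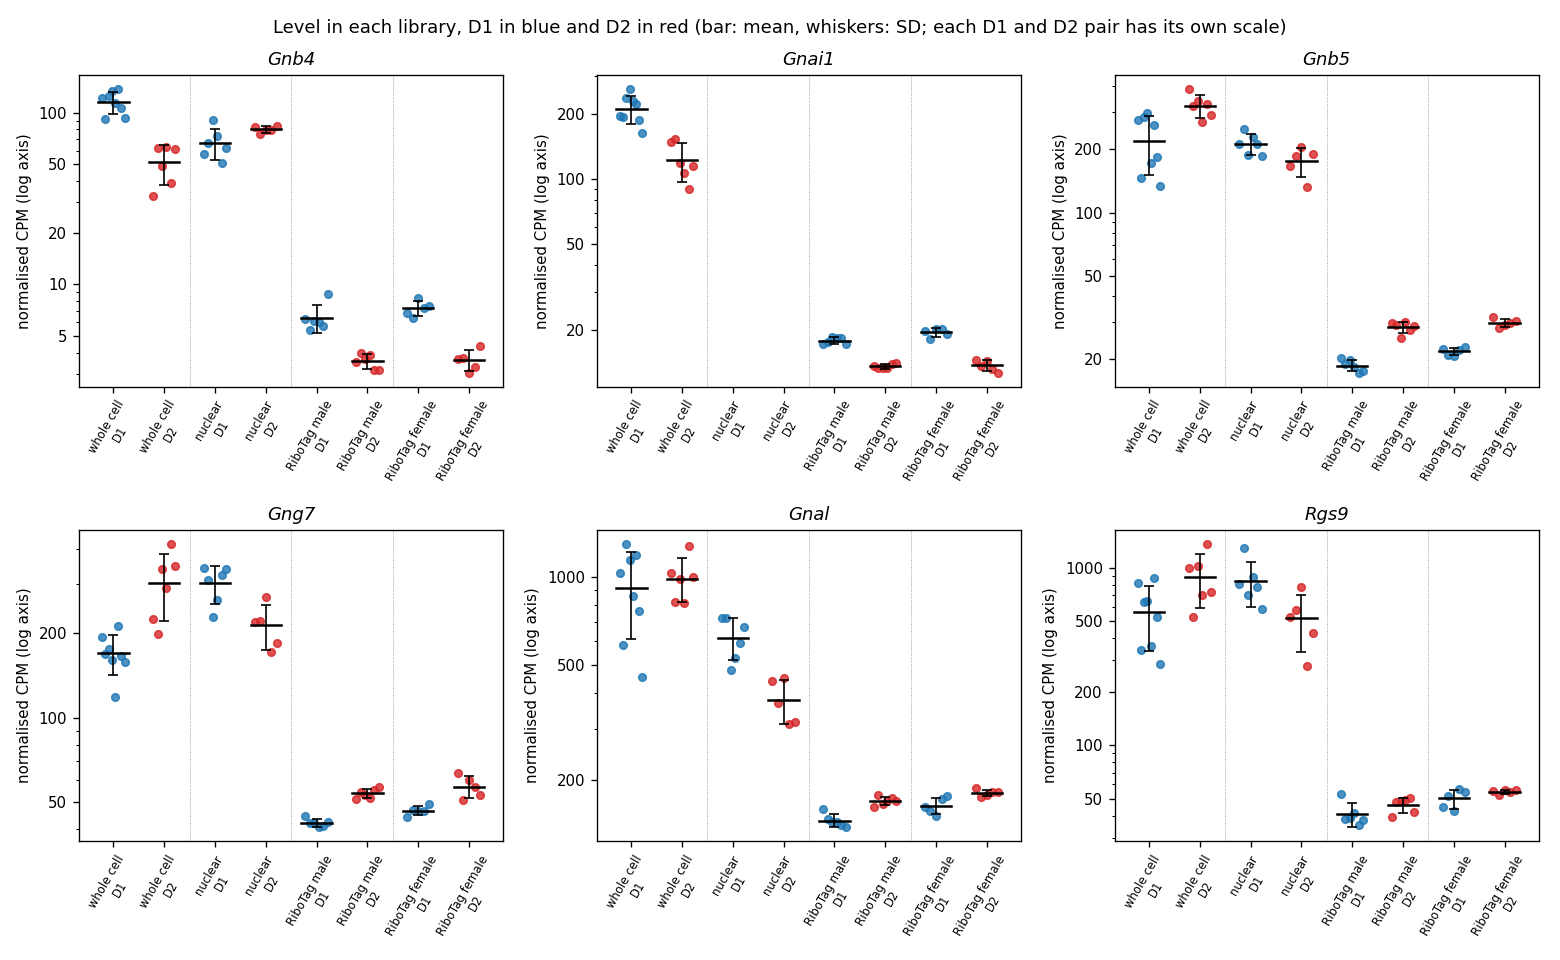
Normalised CPM of 6 members in each library (1 point per library), by method and cell type, with group means and SD bars; each method has its own scale, and Gnai1 was not tested in the nuclei. Gnb4 and Gnai1 lie lower in D2 than in D1 without overlap in whole cell and both RiboTag sets, while in nuclear libraries Gnb4 overlaps and Gnal lies lower in D2.

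The nuclei gave another pattern. Of 24 members tested, 6 were called, with Gng8 higher and Rgs4, Gng3, Gnb2, Gnal and Gng7 lower in D2. The background was 12.3% of 9271 genes (3.20% higher and 9.11% lower). The median log2 fold change of the 24 was -0.23, and that of all genes 0.04. In the nuclei a call also needed a standard error below the 75th percentile.

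Rgs4 had 48.2 at lowest, 91.2 at the median and 273.9 CPM at highest in nuclear D1, and 17.1, 18.9, 23.7, 34.6 and 40.2 CPM in the 5 D2 libraries. All D2 libraries were below all D1 libraries (-2.25, SE 0.45, edgeR adjusted p = 0.0098). Gnal had 478, 631 and 723 CPM in D1 and 311, 318, 369, 438 and 449 CPM in D2, again without overlap (-0.71, SE 0.16, edgeR adjusted p = 0.0113).

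Gng7 had 228.9, 317.1 and 343.6 CPM in D1 and 171.5, 184.4, 219.9, 222.1 and 270.2 CPM in D2, with 4 of 5 D2 libraries below the D1 range (-0.49, SE 0.15, edgeR adjusted p = 0.041). Gng3 (-1.58, adjusted p = 0.0246) and Gnb2 (-1.03, adjusted p = 0.0285, both by edgeR) were lower in D2. Gng8, another γ gene, had 0.847 to 10.5 CPM in D1 and 9.11, 10.1, 11.3, 12.6 and 22.4 CPM in D2 (1.63, SE 0.52, edgeR adjusted p = 0.0477). It passed in 1 of the 10 fits without 1 library in which it was tested.

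Gnb4, called in the other 3 comparisons, did not pass in the nuclei. It had 51.0, 64.3 and 90.1 CPM in D1 and 74.8, 79.2, 79.6, 82.8 and 83.3 CPM in D2, which overlap (0.25, SE 0.15, edgeR adjusted p = 0.253). Gnb5, called in both RiboTag sets, had -0.28 (edgeR adjusted p = 0.171). Rgs9, which passed in no D1 versus D2 comparison, had -0.69 (edgeR adjusted p = 0.067). Gnai1 and Rgs10 did not pass the FPKM filter in the nuclei and were not tested.

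The nuclear differences moved with the set of genes and libraries used. Without the FPKM filter, 24 of 54 members were called, 23 of them lower in D2, while 7290 of 30791 genes were called, 5965 of them lower. Gnal became -1.89 and Rgs4 -3.56. On the FPKM scale over all 47 libraries, nuclear Gnal was 1.06 in D1 and 0.302 in D2, and nuclear Gnb4, which had a positive fitted difference, was 0.411 in D1 and 0.243 in D2, so the sign for Gnb4 depends on the scaling. Leaving out nuclear D2 number 1, 2, 5 or 7 left 2 called members, and leaving out D1 number 5 left 3, while Rgs4 and Gnal passed in 11 of 11 such fits. Without the 3 D1 libraries in which 10 genes held over 50% of the counts, 2 members passed, Rgs4 (-1.25, adjusted p = 0.0424) and Gnal (-0.74, adjusted p = 0.0419, both by edgeR), of 666 genes called in all. The other 4 did not pass (edgeR adjusted p from 0.112 to 0.242). Gng3 went from -1.58 to -0.49 and Gnb2 from -1.03 to -0.46, while Gng7 was -0.44 and Gng8 1.17. The medium spiny neuron markers, 5 genes, summed to 5.82 to 32 FPKM in nuclear D1 and 1.33 to 4.73 FPKM in nuclear D2, and the part of that difference in these results was not tested.

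**Figure D3:**
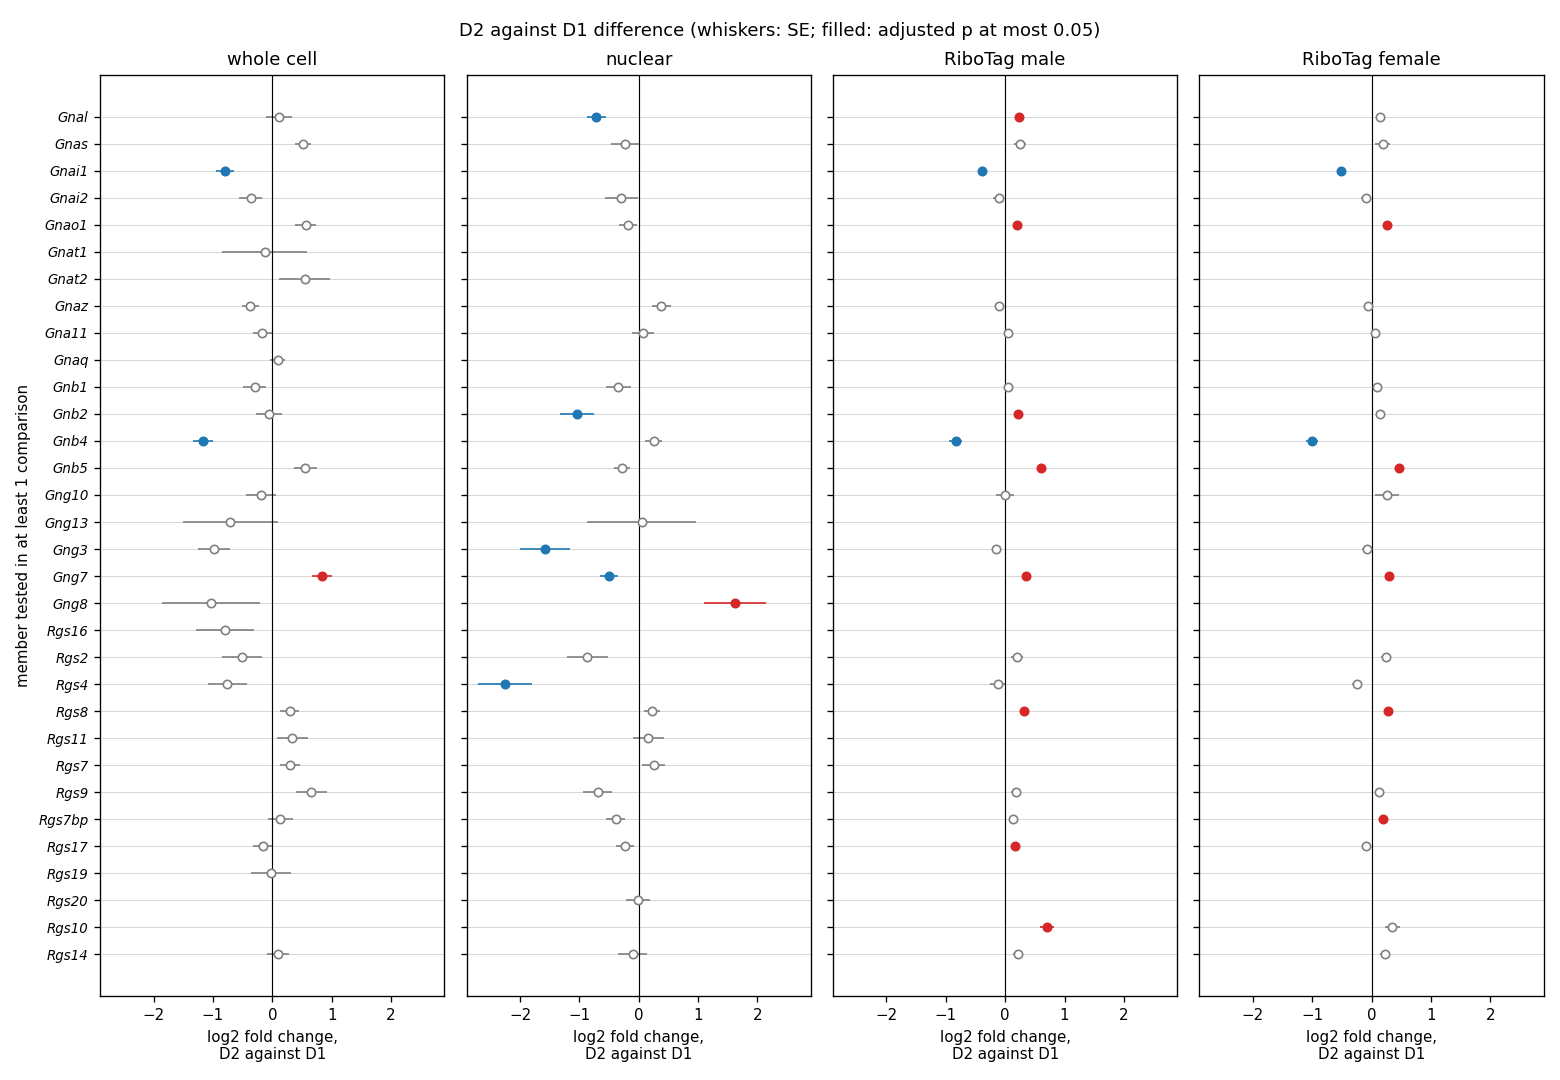
Log2 fold change (D2 over D1) with SE bars of the 32 members tested in any of the 4 D1 versus D2 comparisons, 1 panel per comparison, filled where the adjusted p was at most 0.05. Gnb4 is negative in whole cell and both RiboTag panels and 0.25 in the nuclear panel, and most nuclear values lie below 0 with wider bars than in RiboTag.

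Of the 19 members tested in all 4 comparisons, 1 (Rgs8) had a positive difference in each and 3 (Gnai2, Gng3 and Rgs4) a negative one. These were named after their values were seen. Rgs8, an R4 group protein, had 0.29 in whole cell, 0.23 in nuclear, 0.32 in RiboTag labelled male and 0.28 in RiboTag labelled female, and passed in the last 2 (edgeR adjusted p = 0.00196 and 0.0121).

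Whether the D2 minus D1 difference itself differed between methods was tested in 1 fit over all libraries labelled male (29901 genes, 52 members). Between RiboTag and whole cell, 0 of 52 members were called by edgeR, against 0.120% of genes (0.0836% higher and 0.0368% lower, 36 genes, with 1337 at an unadjusted p under 0.05). At an unadjusted p under 0.05 there were 2 members (Rgs10 at 0.84 and Rgs11 at -1.44), and DESeq2 called 0. The difference between methods was 0.30 (SE 0.27) for Gnb4, 0.28 (SE 0.28) for Gnai1, -0.05 (SE 0.38) for Gnb5 and -0.62 (SE 0.34) for Gng7. These misses do not show that the differences were alike.

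Between nuclear and whole cell, 22 members were called, 21 of them with a lower D2 over D1 difference in the nuclei, against 21.9% of genes (6.12% higher and 15.8% lower). In this fit the median over all genes was 0.33 and over members -0.41. Gng7 had -2.56 (SE 0.35, edgeR adjusted p = 1.82e-05), Gnas -2.08, Rgs9 -2.54, Gnal -2.03 and Gnb5 -2.004. With DESeq2 size factors the all-gene median moved to 0.74, 19 members were called (2 higher and 17 lower), and the split over all genes went from 1831 higher and 4722 lower to 3719 higher and 3466 lower. Between RiboTag and nuclear, 22 members were called, 21 with a higher difference in RiboTag, against 14.6% of genes (12.9% higher and 1.64% lower). Rgs4 had 3.33 (SE 0.71, edgeR adjusted p = 0.00288) and Gnal 2.05 (SE 0.44, edgeR adjusted p = 0.00309). With DESeq2 size factors that split went from 3865 higher and 491 lower to 2263 and 725. The nuclear libraries are common to both contrasts. This fit over all libraries labelled male had no FPKM filter. In the filtered fits within each method, Gng7 had -0.49 in nuclei and 0.84 in whole cells, and Gnal -0.71 and 0.11. Those pairs lie closer together than -2.56 and -2.03 would have them, so the sizes depend on the fit.

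Levels also differed between methods, averaged over D1 and D2. In this fit the median over all genes was -0.13 for nuclear against whole cell and -1.91 for RiboTag against whole cell, so the latter values are read against that shift. All values here rest on scaling the methods together. Nuclear against whole cell gave 18 called members of 52, 7 higher and 11 lower, against 19.2% of genes (6.75% higher and 12.4% lower). The largest were Rgs2 (-2.47, SE 0.32), an RGS gene induced by neuronal activity, Rgs4 (-1.83, SE 0.35), Gnb2 (-1.37) and Gnal (-1.19), and in the other direction Gnao1 (0.95, SE 0.17), Rgs6 (0.86), Gng2 (0.75), Gng12 (0.74) and Gna12 (0.73). Of these, Rgs6, Gng2, Gng12 and Gna12 had medians of at most 3 times the receptor genes per length in whole cells and nuclear D2.

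RiboTag against whole cell gave 42 called members, 20 higher and 22 lower, against 86.4% of genes (23.7% higher and 62.7% lower). The median over the 52 members was -0.09, against -1.91 over all genes. Gng3 (3.26, SE 0.27), Gnas (2.76, SE 0.16), Gnb1 (2.20) and Rgs4 (2.17) were higher in RiboTag, and Gnal (1.59) and Gng7 (1.98) too. Gng3 and Gnas are among the members whose counts can hold reads of an overlapping gene. Among those called lower, Rgs6 (-2.59) and Rgs11 (-3.47) lay below the all-gene median, while Rgs7 (-1.37) and Gna12 (-0.84) lay above it. Of the 4 R7 RGS genes, Rgs6, Rgs7 and Rgs11 were called lower, where 62.7% of all genes were, and Rgs9 was not called (0.14). Rgs7bp was higher (1.45). RiboTag against nuclear gave 45 called members, 22 higher and 23 lower, against 89.3% of genes (25.7% higher and 63.5% lower, with an all-gene median of -2.19), with Rgs4 at 4.00 (SE 0.39) and Gng3 at 3.79 (SE 0.30).

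**Figure D4:**
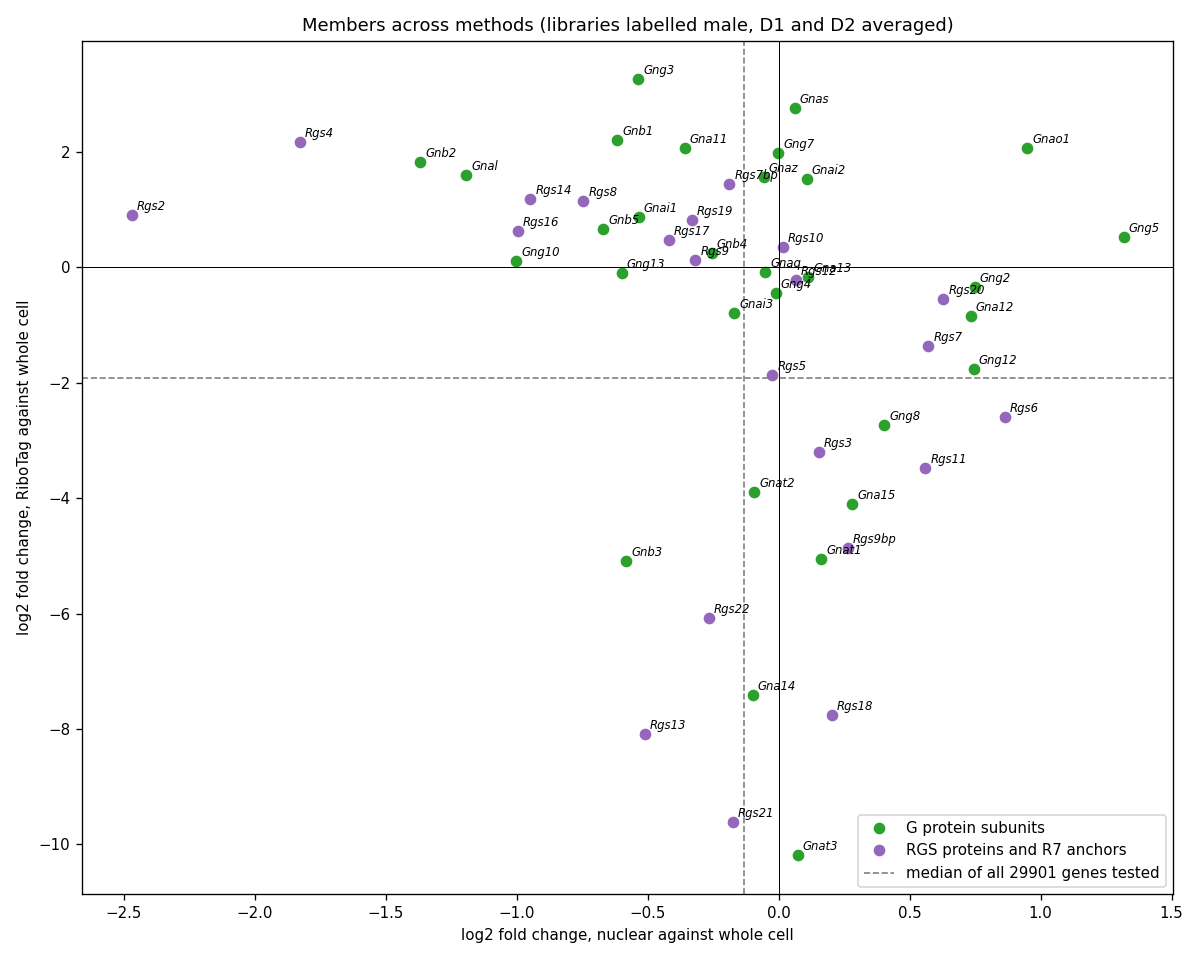
Log2 fold change of nuclear over whole cell (horizontal axis) against RiboTag over whole cell (vertical axis) for the 52 members tested, 1 point per member; both axes share the whole cell libraries. Gng3 and Gnas lie highest in RiboTag, and Rgs2 and Rgs4 lie lowest in nuclei. Members near background were chosen in part by a low RiboTag level, so their place on the vertical axis was partly set by that choice.

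Between RiboTag libraries labelled female and male, 0 of 23 members tested were called by edgeR and 0 by DESeq2, against 0.0834% of 7195 genes (0.0417% higher and 0.0417% lower, 6 genes, with 610 at an unadjusted p under 0.05). At an unadjusted p under 0.05 there were 3 members, Gng3 (-0.18), Rgs2 (-0.19) and Rgs9 (0.15, higher in female). The D2 over D1 difference differed by label for 0 of 23 members, against 0.00% of genes (511 at an unadjusted p under 0.05), and for 0 members by DESeq2. These comparisons set female-labelled libraries against a group of which 6 of 12 had Y-linked levels below 5 CPM and Xist levels within 1.74 to 8.25 CPM. Without those 6, no member was called either.

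Of 28 genes that work with these proteins but are not members (receptor kinases, arrestins, G protein-gated potassium channels, phospholipase Cβ isoforms and others), 15 were tested in whole cells, 12 in the nuclei and 13 in each RiboTag set. In whole cells 0 were called by edgeR (4 at an unadjusted p under 0.05), against 1.05% of all genes, and 3 by DESeq2. In the nuclei 1 was called, lower in D2, against 12.3% of all genes. In each RiboTag set 1 was called, lower in D2, against 2.59% (labelled male) and 1.89% (labelled female) of all genes. In RiboTag it was Kcnj9, a subunit of G protein-gated potassium channels, with 4.81, 5.13 and 5.69 CPM in male-labelled D1 and 2.61, 3.499 and 3.87 CPM in D2 (lowest, median, highest), without overlap (-0.58, SE 0.09, edgeR adjusted p = 3.57e-05), and -0.44 (SE 0.10, edgeR adjusted p = 0.0103) in libraries labelled female. In the nuclei it was Ppp1r1b, the DARPP-32 gene, with -1.94 (SE 0.37, edgeR adjusted p = 0.00917). Elsewhere Ppp1r1b had -0.06 in whole cells (adjusted p = 0.973), 0.18 in RiboTag labelled male (0.0458) and 0.16 in female (0.119, all by edgeR). By adjusted p alone, 2 partners were higher and 2 lower in D2 in RiboTag labelled male, where 9.32% of all genes passed. In RiboTag labelled female 0 were higher and 2 lower, where 4.52% passed.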

How the data were processed

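RNA was measured in D1- and D2-MSNs by whole cell-FACS, nuclear-FACS and RiboTag. The authors aligned reads to GRCm38 with HISAT2 2.0.5 and counted fragments over gene bodies with featureCounts. Reads were counted without regard to strand, for every gene they overlapped, and multimapping reads were left out. The deposited values are raw counts, 1 table of 52636 genes and 49 columns. A repeat run and a pair of lanes were summed with their libraries, which left 47 libraries. The sources differ on whole cell numbers: the titles name 8 D1 and 8 D2 samples and the series design 9 and 7, which the columns give if that run and lane count as samples. The n used here is 8 and 6, and 2 samples titled D2 that match no column of their own were not analysed here. IDs were matched to GENCODE M21 (GRCm38) for 99.7% of genes.

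D1 and D2 were compared within method and label by edgeR 4.0.16 quasi-likelihood tests (R 4.3.3) with TMM scaling and Benjamini-Hochberg adjustment, with no covariate. Genes had over 1 FPM in at least 2 libraries, and FPKM over the gene span of at least 1 in at least 1 library (RiboTag at least 0.1 in at least 2) and at most 50000. A call needed an adjusted p of at most 0.05, a log2 fold change beyond 0.38, a mean above the 25th percentile and, in nuclei, an SE below the 75th. SE was the log2 fold change over the square root of F. A fit over 6 groups labelled male tested methods and their interaction with cell type, and a fit over 4 RiboTag groups tested female against male. DESeq2 1.42.0, other size factors, filters, exon lengths, background subtraction, the replicate block and leaving out libraries were alternatives. The scripts were tested on simulated data. Motifs were counted in RefSeq promoters.

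Total counts ran from 3701255 to 68777008, so 3 counts stand for 0.0436 to 0.811 CPM. Nothing beyond the study's statement of separate mice describes the replicates. Replicate numbers did not pair the samples. The members and lists were chosen with earlier results of these data known. Named are members called in a D1 versus D2 comparison, the highest member of each class and method, Gnal, Rgs9, Gng7, Gnb5, Rgs7bp and Gnas, and called partners. Others, among them Rgs2, Rgs6, Rgs7, Rgs8, Gnb1, Gng2 and Gng12, were named after their values were seen.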

Additional observations from a re-analysis of the deposited data

Results flagged for a closer look

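Over 46 groups of named members, 3 had 1 library apart from the others by Dixon's criterion, which chance alone gives in about 1 of 20 groups. Gnb4 in RiboTag labelled male D1 had 8.75 CPM in library 6, against 6.25 in the next. Gng8 in nuclear D2 had 22.4 CPM in library 5, against 12.6 in the next. Rgs9 in RiboTag labelled male D1 had 52.9 CPM in library 1, against 41.2 in the next.

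The D2 over D1 difference differed between nuclei and whole cells (nuclear minus whole cell, log2, edgeR, adjusted p at most 0.0382) for these members. Values were -2.56 for Gng7, -2.08 for Gnas, -1.94 for Gnao1, -2.004 for Gnb5, -2.54 for Rgs9, -2.03 for Gnal, -2.20 for Gnb2 and -1.26 for Rgs20. Rgs4 had -2.77, Rgs7bp -1.72, Rgs17 -1.32, Gng3 -1.87, Rgs14 -1.48 and Gna11 -1.02. Rgs22, a member near background, had 1.53.

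Between RiboTag and nuclei (RiboTag minus nuclear, adjusted p at most 0.0375), the differences were 1.94 for Gng7, 1.64 for Gnas, 1.955 for Gnb5, 2.37 for Gnb2, 2.63 for Gng3, 3.33 for Rgs4 and 2.05 for Gnal. They were 1.497 for Rgs17, 1.45 for Gnao1, 1.21 for Rgs20, 0.97 for Rgs10, 1.95 for Rgs9, 1.61 for Rgs7bp, 1.45 for Rgs14 and 1.07 for Gna11. Both sets share the nuclear libraries, in which Penk went against the cell type label and the estimated background was 0.578 to 22.2% of counts in D1 and 32.5 to 52.3% in D2. The part of these in the differences was not tested. All these differences are from the fit over the methods together, which had no FPKM filter. In the filtered fits within each method, Gna11 had 0.07 in nuclei and 0.04 in RiboTag labelled male.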

How the results depend on the processing

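Where a named member passed by adjusted p in the main fit of a comparison, its log2 fold change kept its sign in every alternative. Members that did not pass were not checked for a change of sign. In whole cells (3 members called), DESeq2 called 9, DESeq2 size factors 6, a repeat run kept as its own library 5, and 0 were called without the FPKM filter, without any filter on low counts, or with summed exons as gene length. Over all genes, calls went from 172 to 700, 197, 328, 34, 34 and 26 in that order. In the nuclei (6 called), these last 3 settings gave 24, 23 and 26, and leaving out libraries with over 50% of counts in 10 genes gave 2, while calls over all genes went from 1142 to 7290, 7291, 7357 and 666. By adjusted p alone, RiboTag labelled male gave 10 and female 7, and female without a filter on low counts also gave 7 (634, 320 and 495 genes in all). With summed exons the highest member of a class stayed in 26 of 48 cases. Causes were not tested, but the filters change how many genes enter the fit.

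With 1 library left out, calls ran from 2 to 5 in whole cells (5 without D1 number 8 or D2 number 1, 2 without D1 number 1, 3 or 4), 2 to 7 in the nuclei, 4 to 4 in RiboTag labelled male and 3 to 4 in female. They ran from 17 to 18, 41 to 41 and 45 to 46 for nuclear against whole cell, RiboTag against whole cell and RiboTag against nuclear, 17 to 21, 0 to 0 and 16 to 21 for the cell type differences in the order nuclear against whole cell, RiboTag against whole cell and RiboTag against nuclear, and 0 to 0 for female against male and its interaction.

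Same-numbered D1 and D2 libraries did not deviate together (correlations from -0.29 to 0.21). With the replicate number as a block, 2 members were called in whole cells, 0 in the nuclei (0 genes in all, 2613 at an unadjusted p under 0.05 by edgeR), 4 in RiboTag labelled male and 4 in female. For the cell type differences the block gave 17 members between nuclear and whole cell (5 higher and 12 lower, against 1 and 21 without it), with 2524 genes higher and 2081 lower in place of 1831 and 4722, and Rgs17, Gna11, Rgs14 and Gng3 no longer passed. It gave 15 between RiboTag and nuclear (Gna11 no longer passed), 0 between RiboTag and whole cell and 0 between female and male. Levels between methods or between female and male could not be fitted with it, since blocks were set within a method and label and take up that difference. Over single members, 1077 alternative log2 fold changes kept their side of the threshold and 113 no longer passed. Of the group mean levels under another gene length or scaling, 386 lay at least 1 SD from the main value and 118 lay closer. The shallowest library was nuclear D2 number 7, where 3 counts were 0.811 CPM, and the part of depth in the results was not tested.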
